A study of Mus musculus with 6 samples.

Results

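The long intergenic noncoding RNAs (lincRNAs) expressed in cultured cardiac mesenchymal cells are described here, 98 genes out of 5306 lincRNA entries and 53460 entries of all kinds in the deposited table. They were chosen by level. FPKM counts sequenced fragments per kilobase of transcript and per size of the library. At least 3 of the 6 libraries had to reach 2 FPKM, and the gene had to lie on an autosome. Meg3, H19 and Rian were left out by name, as were entries that the authors marked as having too many fragments to estimate, among them Malat1. Of the 101 lincRNAs at this level, Xist and Ftx fell out because they lie on chromosome X and Meg3 because of its name. Outside the set, 3637 lincRNA entries were listed at 0 in every library. Since level chose these genes, their levels are given below as a description.

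Cardiac mesenchymal cells are a culture of heart stroma, of which the slowly adherent fraction, set apart by its late attachment to plastic, was used. The 3 infarct libraries came from male C57BL6/J mice whose hearts had 60 min of ischemia and were reperfused for 28 days, and the 3 sham libraries from males of the same cohort that had the chest opened without an infarct. Separate animals or cultures within a group are not stated in the labels. The p-values therefore reflect only how these samples vary, and part of that variation may be technical. Ribosomal RNA was removed from total RNA before sequencing.

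LincRNAs are transcribed by the same machinery as messenger RNAs and are often spliced, but hold no long conserved reading frame. Some build nuclear structures, some bind proteins or microRNAs, some carry small nucleolar RNAs (snoRNAs) or microRNAs in their introns or exons, and for many no role is known. In heart, Carmn and Bvht (Braveheart) are known from work on the cardiac and smooth muscle lineages of the mouse.

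The libraries went against their labels in 1 respect. Xist, the RNA that coats the inactive X of female cells, stood at 63.1 to 89.9 FPKM in infarct libraries and at 102 to 111 FPKM in sham libraries, although all mice are labelled male. The Y-linked gene Ddx3y stood at 0.451 to 6.07 FPKM in infarct libraries and at 0.0547 to 0.105 FPKM in sham libraries, and Eif2s3y, Kdm5d and Uty were likewise higher in every infarct library. Because the autosomal rule removes X and Y genes, no member is one of these, but every comparison below is between libraries that also differ in them, and their part in it was not tested. In the marker counts that follow, a marker stood at 1 FPKM or more if at least 3 of the 6 libraries, of either group, reached it. The summed level of 22 endothelial markers was 117 to 135 FPKM in infarct libraries and 228 to 667 FPKM in sham libraries. Its part in the results below was not tested. Of the 22, 18 stood at 1 FPKM or more, but Erg, Icam2, Mmrn2, Robo4, Sox18, Tek, Tie1 and Vwf did so through sham libraries only. Eng alone stood at 70.2 to 103 FPKM in infarct libraries and at 92.7 to 128 FPKM in sham libraries. Of the defining endothelial genes, Pecam1 stood at 0.150 to 2.52 FPKM in infarct libraries and at 10.5 to 56.3 FPKM in sham libraries. The labelled cell type was checked against 11 fibroblast and mesenchymal markers, of which 10 stood at 1 FPKM or more, and their sum was 4229 to 5495 FPKM in infarct libraries and 4293 to 5537 FPKM in sham libraries. The summed level of 7 macrophage and leukocyte markers, 2 of them at 1 FPKM or more, was 15.3 to 30.2 FPKM in infarct libraries and 10.3 to 29.4 FPKM in sham libraries, most of it Lyz2, while Ptprc, the marker of all leukocytes, was at most 0.0528 FPKM. In bulk RNA, fewer cells of a type and less RNA per cell cannot be told apart.

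Promoters of 4 members are shown as examples, picked for the position or the values of the lincRNA. A link between their motifs and the levels or changes below was not tested. Snhg18 and Gm17501 start beside a protein-coding gene on the other strand, and 2410018L13Rik and Gm1976 are members whose infarct and sham values did not overlap. Each sequence runs 5′ to 3′ on the strand of the lincRNA, from 250 bases before to 50 after the start in RefSeq on GRCm38.p6. Capitals mark matches to the motifs searched for, on either strand (GGGCGG, bound by Sp1; TATAAA, the TATA box; CCAAT, bound by NF-Y; CCGGAAG, bound by ETS factors; GGAATG, bound by TEAD factors). Snhg18 lies at chr15:32244613-32244912 (minus strand), Gm17501 at chr3:145649827-145650126 (plus strand), 2410018L13Rik at chr12:23010194-23010493 (minus strand) and Gm1976 at chr17:94834750-94835049 (minus strand).
Snhg18: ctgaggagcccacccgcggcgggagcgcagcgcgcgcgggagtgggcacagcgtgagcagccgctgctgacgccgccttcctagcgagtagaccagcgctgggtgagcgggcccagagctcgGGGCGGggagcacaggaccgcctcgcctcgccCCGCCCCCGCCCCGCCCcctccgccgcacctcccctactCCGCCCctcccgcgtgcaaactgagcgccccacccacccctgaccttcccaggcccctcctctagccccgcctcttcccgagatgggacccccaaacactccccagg
Gm17501: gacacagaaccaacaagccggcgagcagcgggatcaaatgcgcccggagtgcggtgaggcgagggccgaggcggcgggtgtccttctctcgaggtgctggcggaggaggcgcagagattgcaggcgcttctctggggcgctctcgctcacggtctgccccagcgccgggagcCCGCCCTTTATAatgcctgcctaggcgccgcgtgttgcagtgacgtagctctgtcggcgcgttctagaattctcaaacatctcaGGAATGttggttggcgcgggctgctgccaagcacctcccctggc
2410018L13Rik: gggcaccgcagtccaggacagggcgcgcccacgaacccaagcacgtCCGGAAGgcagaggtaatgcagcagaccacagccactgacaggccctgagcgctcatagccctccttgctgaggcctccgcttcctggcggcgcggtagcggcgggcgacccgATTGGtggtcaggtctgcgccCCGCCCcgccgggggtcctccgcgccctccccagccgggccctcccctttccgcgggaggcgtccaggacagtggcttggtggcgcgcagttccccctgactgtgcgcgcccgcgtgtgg
Gm1976: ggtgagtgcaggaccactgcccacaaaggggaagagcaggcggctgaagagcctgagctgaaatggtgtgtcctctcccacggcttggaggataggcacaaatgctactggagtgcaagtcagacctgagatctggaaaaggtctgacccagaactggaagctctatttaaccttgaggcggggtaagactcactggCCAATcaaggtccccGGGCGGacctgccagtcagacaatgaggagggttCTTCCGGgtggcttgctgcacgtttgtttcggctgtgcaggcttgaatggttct
The Snhg18 window holds 5 matches, all to the Sp1 motif. The Gm17501 window, whose start lies 235 bp from the one in GENCODE M21, holds 3 matches. TATAAA and the Sp1 motif lie before the start, both on the strand opposite to Gm17501. The TEAD motif lies after it, on the strand of Gm17501. TATAAA, 72 bp before the start, thus reads in the direction of the protein-coding gene beside it, not of the lincRNA. The windows of 2410018L13Rik and Gm1976 hold 3 matches each, to the NF-Y, Sp1 and ETS motifs.

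Of the 98 members, 50 had a promoter in RefSeq by name or gene identifier. In 36 of them its start lay within 500 bp of a start in GENCODE M21. In those 36 the median ratio of observed to expected CpG was 0.714, against 0.389 over 27025 genes with a promoter, and 58.3% of the members against 36.5% of all genes had a ratio of 0.6 or more. CCAAT was found in 55.6% of these member windows and in 37.9% of all windows, GGGCGG in 50% and 35.9%, and CCGGAAG in 27.8% and 9.12%. GGAATG was found in 22.2% of member windows and in 14.6% of all windows. TATAAA was found in 11.1% and 14.2%, and TGANTCA, the AP-1 motif, in 2.78% and 7.93%. The 27025 genes are all genes with a promoter. Unlike the members, they were not chosen by level or by the distance of their start from one in GENCODE M21. The part of these choices in the contrasts was not tested. Both strands were searched, and a match says only that these letters are present.

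MicroRNA genes lie in some members too. On the same strand, 5 members have annotated miRNA genes wholly within their span in GENCODE M21, 20 genes with 37 mature sequences in RefSeq. Those with a shared seed, and 1 other from a single-miRNA host, are shown in RNA letters, with the seed (bases 2 to 8) in capitals. The let-7 miRNAs lie in 6720427I07Rik on chromosome 13, miR-453 and miR-496a in Mirg on chromosome 12 and miR-101a in E130102H24Rik on chromosome 4.
mmu-let-7a-5p: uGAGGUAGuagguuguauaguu
mmu-let-7d-5p: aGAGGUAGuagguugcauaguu
mmu-let-7f-5p: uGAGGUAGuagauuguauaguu
mmu-let-7a-1-3p: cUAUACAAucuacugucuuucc
mmu-let-7f-1-3p: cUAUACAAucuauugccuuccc
mmu-miR-453: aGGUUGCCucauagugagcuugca
mmu-miR-496a-5p: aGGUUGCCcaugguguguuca
mmu-miR-101a-3p: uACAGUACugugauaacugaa
The 3 let-7 sequences from the 5′ arm share the seed GAGGUAG, those from the 3′ arm of let-7a-1 and let-7f-1 share UAUACAA, and miR-453 and miR-496a-5p share GGUUGCC. The 37 mature sequences hold 33 seeds in all. Mir29b-1 and Mir24-2 lie beside Gm27019 and Gm26532 and share only 2 nt with the end of each. These 2 and the 20 miRNA genes within members were listed at 0 FPKM in every library. Their hairpins are 66 to 110 nt long and the library inserts were 250 to 300 bp per the labels, so only the host transcripts can be read here.

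The levels of the 98 members were low and spread over several orders of magnitude. The median member stood at 4.19 FPKM (quartiles 2.44 and 12.3), against 13 FPKM for the 10475 protein-coding genes that met the same level rule. Of the members, 56 averaged under 5 FPKM, 29 averaged 10 FPKM or more, and 3 averaged over 1000 FPKM. Those 3 took 96.9% to 97.2% of the members' summed FPKM in every library. The other 95 summed to 998, 1079 and 968 FPKM in the infarct libraries and to 1014, 972 and 1012 FPKM in the sham libraries, and the groups overlapped.

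In 61 members all 6 libraries reached 2 FPKM, and 12 members did so in exactly 3. Gm14230 passed through the 3 infarct libraries only and Gm1976 through the 3 sham libraries only, so these 2 had to differ between the groups to be members at all. Just inside the rule, D130017N08Rik, Gm13293 and AC154760.1 had third-highest values of 2.01, 2.01 and 2.02 FPKM. Just outside it, 1810044D09Rik, Gm19705 and Snhg10 had third-highest values of 1.96, 1.96 and 1.89 FPKM. A floor of 1 FPKM would have given 161 members and a floor of 5 FPKM 41.

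At the depth that the lowest values imply, 22.4 to 31.0 M fragments per library, 2 FPKM on a transcript of 1 kb stood for 33.6 to 46.5 fragments. Over the 87 members with a transcript of at least 500 nt, the median library held 13.4 to 199894 fragments per member, and 55 members had at least 100. These are estimates from the values and cover counting error only.

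**Figure D1:**
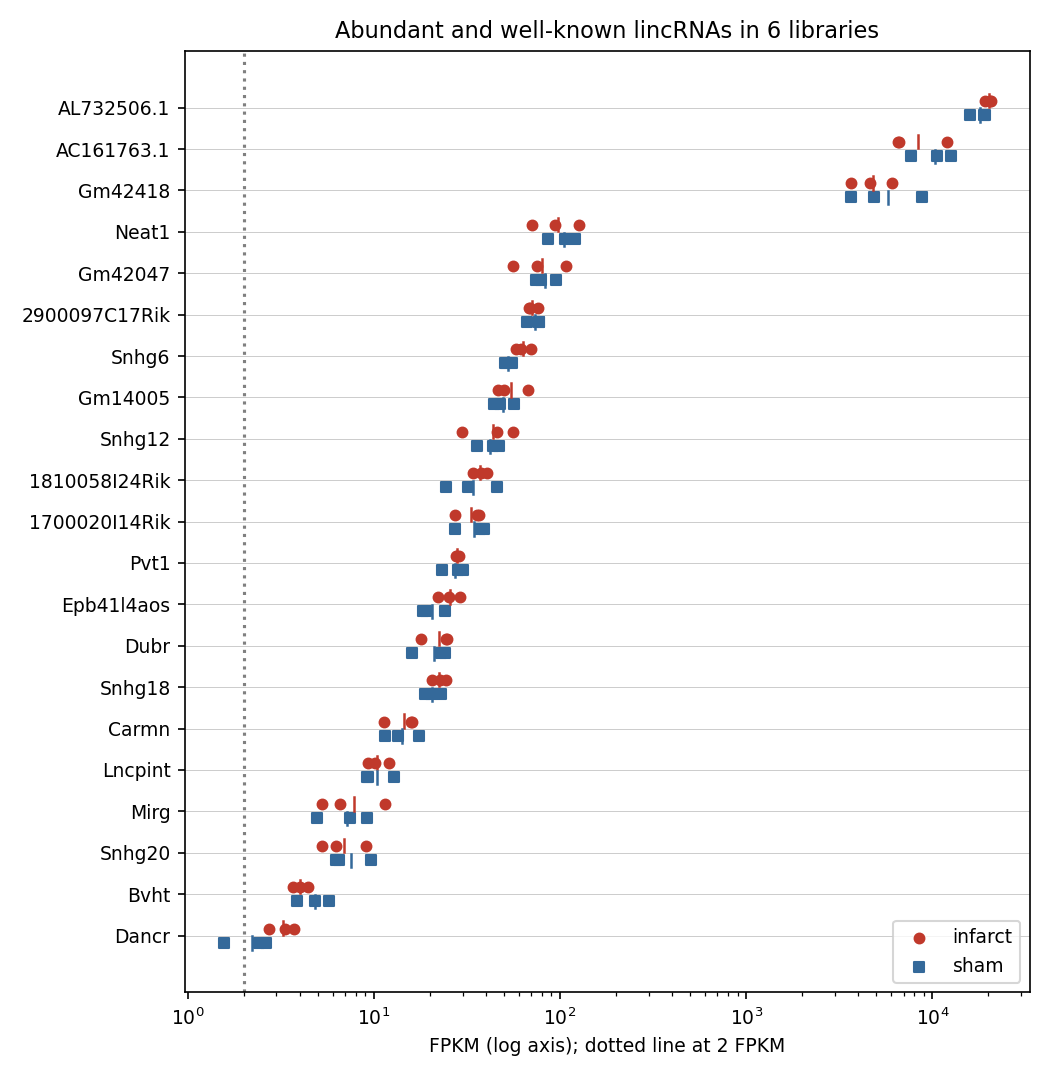
FPKM of 21 abundant or well-known lincRNAs on a log axis, with 1 circle per infarct library above and 1 square per sham library below in each row, vertical ticks at the group means, and a dotted line at 2 FPKM. The lowest value in the 3 top rows is 3664 FPKM and the highest in the other rows 127 FPKM, and the infarct and sham values overlap in every row but those of Snhg6 and Dancr.

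The 3 most abundant members are very short or overlap the gene of a structural RNA. AL732506.1 (chr4:43492783-43493063, minus strand, GRCm38) is named Rmrp in GENCODE M21, and 271 of its 281 nt are shared with the Rmrp ribozyme gene, the RNA of RNase MRP, which processes ribosomal RNA. It had 20747, 19242 and 20492 FPKM in infarct libraries, against 19001, 15839 and 19250 FPKM in sham libraries. The Rmrp ribozyme entry itself had 93230 to 110983 FPKM in infarct libraries and 76418 to 113003 FPKM in sham libraries, and fragments of these entries cannot be told apart.

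AC161763.1 (chr7:144914470-144914637, plus strand) is named Bc1 in GENCODE M21, a short RNA made by RNA polymerase III that is best known from rodent neurons. It had 6658, 12040 and 6519 FPKM in infarct libraries, against 12667, 7655 and 10536.5 FPKM in sham libraries, and the groups overlapped. Its transcript is 168 nt long and that of AL732506.1 281 nt, at or below the insert length, so their FPKM cannot be set beside those of longer RNAs. Gm42418 (chr17:39846958-39848788, plus strand) overlaps an annotated ribosomal RNA gene on the other strand. It had 6082, 4613 and 3666 FPKM in infarct libraries, against 3664, 8797 and 4831 FPKM in sham libraries, with the highest value in sham library 2. The sources used here do not give whether the authors' counting used the strand of the reads.

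Among the members that build nuclear structures or act in growth and DNA damage, Neat1 was the most abundant. Neat1 (chr19:5824708-5845478, minus strand), the scaffold of nuclear paraspeckles, had 70.5, 127 and 94.2 FPKM in infarct libraries, against 120, 107 and 86.3 FPKM in sham libraries. The groups overlapped, with infarct library 2 the highest and infarct library 1 the lowest of all. 2900097C17Rik, the mouse Norad, which binds Pumilio proteins and guards chromosome stability, had 68.9, 68.1 and 76.2 FPKM in infarct libraries, against 76.7, 66.3 and 76.9 FPKM in sham libraries. It was one of the steadiest abundant members, with no library far from the rest.

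1700020I14Rik, called Oip5os1 in RefSeq and known as Cyrano, which directs the decay of miR-7, had 27.4, 35.8 and 36.5 FPKM in infarct libraries, against 37.2, 27.4 and 38.9 FPKM in sham libraries. Pvt1, which lies 47612 bp from Myc, had 28.5, 27.9 and 27.6 FPKM in infarct libraries, against 23.3, 28.3 and 30.1 FPKM in sham libraries. Lncpint, a target of p53 that acts with the Polycomb repressor, had 10.1, 12 and 9.28 FPKM in infarct libraries, against 12.8, 9.16 and 9.28 FPKM in sham libraries. In none of these 3 did the groups separate.

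Gm14005, known in the mouse as Morrbid and a neighbour of the apoptosis gene Bcl2l11 at 15772 bp, had 46.4, 67.7 and 50.3 FPKM in infarct libraries, against 47.4, 44.4 and 56.8 FPKM in sham libraries. 1810058I24Rik, whose transcript is known to encode a short mitochondrial peptide although the table classes it as a lincRNA, had 37.5, 40.4 and 34.2 FPKM in infarct libraries, against 32.0, 24.3 and 45.7 FPKM in sham libraries. Gm42047, for which no role is given here, averaged 79.8 ± 26.5 FPKM in infarct libraries and 82.6 ± 10.6 FPKM in sham libraries (SD, n = 3 each). The infarct and sham ranges overlapped in these 3 as well.

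The hosts of snoRNAs and small Cajal body RNAs were 7 members: Snhg6, Snhg12, Snhg18, Snhg20, Epb41l4aos, 2900076A07Rik and Gm26945. Snhg6 (chr1:9941959-9944118, minus strand), host of Snord87, had 69.8, 61.6 and 58.4 FPKM in infarct libraries, against 50.4, 55.0 and 51.6 FPKM in sham libraries. Every infarct library stood above every sham library. Snhg12, which holds 5 snoRNA entries and has 1538 nt in its longest transcript, had 29.8, 56 and 46 FPKM in infarct libraries, against 43.5, 35.8 and 46.9 FPKM in sham libraries. Snhg18, host of Snord123, had 20.5, 22.7 and 24.4 FPKM in infarct libraries, against 20.2, 18.7 and 23.0 FPKM in sham libraries. Snhg12 and Snhg18 overlapped between the groups.

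Epb41l4aos, host of a snoRNA on chromosome 18, had 29, 22.1 and 25.4 FPKM in infarct libraries, against 19, 18.4 and 24 FPKM in sham libraries, so that only the highest sham library reached into the infarct range. Snhg20 averaged 6.89 ± 1.99 FPKM in infarct libraries and 7.5 ± 1.91 FPKM in sham libraries (SD, n = 3 each). The small RNA that lies in Snhg20, the scaRNA Gm26083, was listed at 1.59 to 9.84 FPKM in infarct libraries and at 0, 77.5 and 0 FPKM in sham libraries. This entry is shorter than the inserts, and the other 10 snoRNA or scaRNA entries in members were listed at 0 throughout.

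Of the 5 miRNA hosts, Snhg20 and 2900076A07Rik also hold a scaRNA and are counted above. Mirg, the miRNA-bearing RNA of the imprinted Dlk1-Dio3 domain with 14 miRNA genes, had 6.61, 11.5 and 5.28 FPKM in infarct libraries, against 7.43, 9.19 and 4.94 FPKM in sham libraries. The let-7 host 6720427I07Rik had 6.60, 5.58 and 6.76 FPKM in infarct libraries, against 6.09, 7.70 and 4.93 FPKM in sham libraries. Its deposited locus holds let-7d but not let-7f-1 or let-7a-1. E130102H24Rik, the miR-101a host, had 1.19, 1.65 and 2.26 FPKM in infarct libraries, against 2.54, 0.839 and 2.26 FPKM in sham libraries. Infarct and sham values overlapped in these 3. Beside miRNA genes, Gm27019 averaged 12 ± 2.43 FPKM in infarct libraries and 12.9 ± 3.72 FPKM in sham libraries, and Gm26532 averaged 7.79 ± 2.30 FPKM in infarct libraries and 8.62 ± 1.92 FPKM in sham libraries (SD, n = 3 each).

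Of the members known from heart and muscle, Carmn and Bvht lie 2153 bp apart on chromosome 18. Carmn, which marks smooth muscle and helps set cardiac cell fate, had 11.4, 16.1 and 15.9 FPKM in infarct libraries, against 17.5, 13.6 and 11.5 FPKM in sham libraries. Bvht, needed for cardiac commitment of mouse stem cells, had 4.4, 4 and 3.69 FPKM in infarct libraries, against 3.88, 4.81 and 5.72 FPKM in sham libraries. Dubr, which is known from muscle differentiation, had 18, 24.4 and 24.6 FPKM in infarct libraries, against 23.1, 15.9 and 24.2 FPKM in sham libraries. The groups overlapped in each.

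The pathway lists hold further noncoding genes that are not members. Of 34 names in the list of small RNA hosts, 20 genes were tested (7 of them members) and none was called, with a median change of 0.06. Of 31 names in growth, p53, DNA damage and nuclear architecture, 24 entries were tested (6 members) and none was called, with a median of -0.01. Of 32 names in heart, vessel and mesenchyme, 4 genes were tested (2 members) and none was called, with a median of -0.05. At an unadjusted p under 0.05 these lists held 2 of 20, 1 of 24 and 0 of 4 genes, against 3.58% of all genes tested. The first 2 were the member Snhg6 and Dleu2, the host of miR-15a and miR-16-1, with 10.2 ± 1.43 FPKM in infarct libraries and 6.44 ± 0.726 FPKM in sham libraries (SD, n = 3 each), and the 1 in the growth list was Xist, whose levels are given above. The changes are log2(FPKM + 1), infarct minus sham, and the median over all 12724 genes tested was 0.02. A second entry named Dancr stood at 0.442 ± 0.0277 FPKM in infarct libraries and 0.438 ± 0.0837 FPKM in sham libraries (SD, n = 3 each), under the level rule.

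No member passed the test of infarct against sham. In limma on log2(FPKM + 1), fitted over all 12724 genes and adjusted by Benjamini-Hochberg, 0 of 98 members had an adjusted p under 0.05, and the smallest was 0.881. Of all genes tested 3 were called, 0.0236%, with 2 higher (0.0157%) and 1 lower (0.00786%). At an unadjusted p under 0.05 there were 6 members (6.12%), 4 higher and 2 lower, against 3.58% of all genes (1.28% higher and 2.29% lower). The infarct and sham values did not overlap in 9 members (9.18%), 6 higher and 3 lower, against 7.82% of all genes (3.72% higher and 4.10% lower). Gm14230 and Gm1976, which reached the level rule through 1 group, are in both counts. With small, ribosomal and mitochondrial RNA left out and FPKM rescaled, the groups did not overlap in 12 members, 4 higher and 8 lower, and 1 member was higher and 2 were lower at an unadjusted p under 0.05. Of all 12682 genes then tested, 1399 did not overlap under that rescaling (98 higher and 1301 lower) and 4.51% had such a p (56 higher and 516 lower). That rescaling moved the median change of all genes to -0.09.

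The changes were small on log2(FPKM + 1). That scale understates the change of low genes, its intervals included, and 56 members averaged under 5 FPKM. The median over members was -0.01, with 46 positive and 52 negative, 71 under 0.2 in size and 4 of 0.5 or more. The ratio of mean FPKM in infarct libraries over sham libraries lay between 0.8 and 1.25 in 79 members. The 95% interval of the change lay within 1 on the log2 scale of no change in 87 members, and within 0.5 in 31, with a median half-width of 0.45. In the authors' deposited table, too, no member had a q-value under 0.05, against 1.66% of the 14922 genes that the table tests, and 85 members had a q-value above 0.99. The smallest q-value of a member there was 0.413, for Gm12840.

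**Figure D2:**
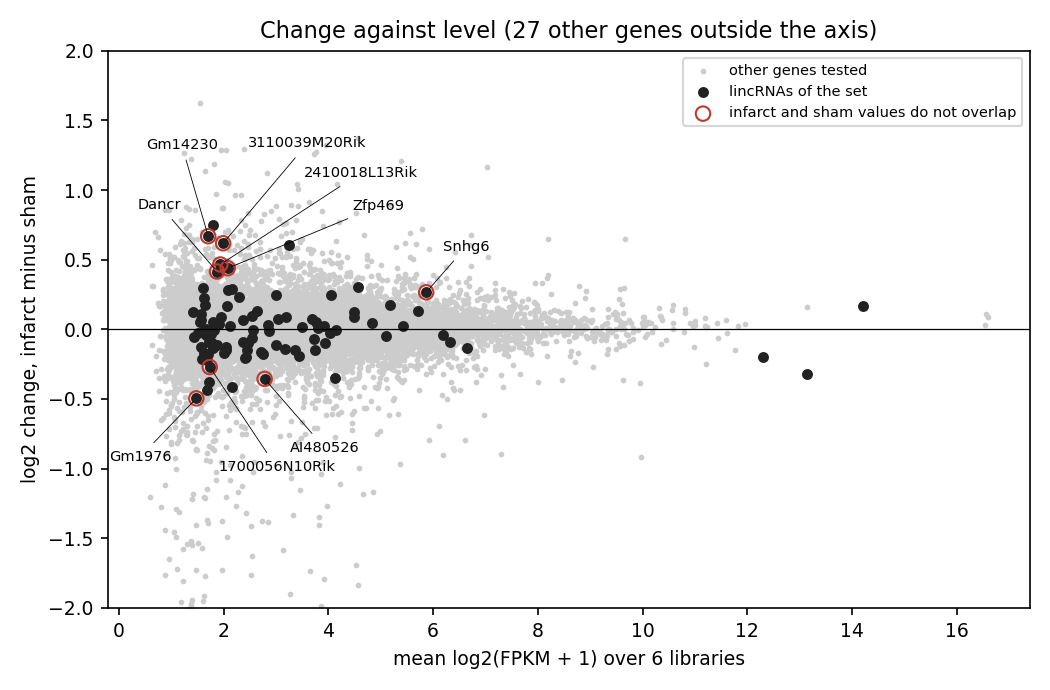
Change in log2(FPKM + 1), infarct minus sham, against the mean log2(FPKM + 1) of the 6 libraries, for the lincRNAs of the set (black) and the other genes tested (grey), with 27 other genes outside the axis limit of 2. Red rings mark the 9 lincRNAs whose infarct and sham values do not overlap, and none of the black points passed the adjusted threshold.

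Of the 6 members whose infarct values all lay above the sham values, Gm14230 had the smallest p. Gm14230 (chr2:156833049-156839892, minus strand), a 4-exon lincRNA that starts 115 bp from the start of the repressor gene Tgif2, had 3.97, 2.39 and 3.13 FPKM in infarct libraries, against 1.71, 1.86 and 1.24 FPKM in sham libraries. Its change was 0.67 (SE 0.18, 95% interval 0.23 to 1.1), with an unadjusted limma p of 0.00841 and a limma adjusted p of 0.881. Gm14230 met the level rule through the infarct libraries only. The rule thus favoured this direction, and the p and interval are no separate support for it. Tgif2 itself averaged 2.26 ± 1.24 FPKM in infarct libraries and 1.6 ± 0.922 FPKM in sham libraries (SD, n = 3 each), and its own difference had an unadjusted limma p of 0.368. In the authors' deposited table Gm14230 had a q-value of 0.488.

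2410018L13Rik, whose promoter is shown above, had 4.31, 3.47 and 2.83 FPKM in infarct libraries, against 2.01, 2.31 and 2.48 FPKM in sham libraries. Its change was 0.47 (SE 0.15, unadjusted limma p 0.0198), and 1469 nt of its exons overlap annotated pseudogenes on the same strand, so its level is uncertain. Zfp469, listed as a lincRNA although its human counterpart ZNF469 codes for a zinc finger protein, had 3.43, 5 and 3.48 FPKM in infarct libraries, against 2.36, 2.95 and 2.61 FPKM in sham libraries. Its change was 0.44 (SE 0.16, unadjusted limma p 0.028). Snhg6 changed by 0.27 (SE 0.10, unadjusted limma p 0.0294), the smallest change of the 6 but at the highest level, and by 0.15 with small, ribosomal and mitochondrial RNA left out.

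Dancr, known from the control of differentiation in progenitor cells, had 2.72, 3.33 and 3.71 FPKM in infarct libraries, against 2.65, 2.42 and 1.56 FPKM in sham libraries. The gap between the groups was narrow, and the change of 0.41 (SE 0.18) had an unadjusted limma p of 0.0518 and was 0.26 without sham library 3. 3110039M20Rik had 2.69, 7.04 and 3.02 FPKM in infarct libraries, against 1.82, 2.22 and 2.64 FPKM in sham libraries. Its change of 0.62 (SE 0.30, unadjusted limma p 0.080) was 0.26 without infarct library 2. The adjusted p of these 5 members rounded to 1 in limma.

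In 3 members every infarct library lay below every sham library. AI480526, which starts 527 bp from the histone methyltransferase gene Setd1b and overlaps 2 other lincRNAs on the opposite strand, had 5.78, 5 and 4.54 FPKM in infarct libraries, against 6.41, 7.05 and 6.93 FPKM in sham libraries. Its change was -0.36 (SE 0.12, 95% interval -0.63 to -0.08, unadjusted limma p 0.0179). Setd1b averaged 7.15 ± 0.515 FPKM in infarct libraries and 6.94 ± 0.376 FPKM in sham libraries (SD, n = 3 each). Gm1976 had 0.768, 1.67 and 1.74 FPKM in infarct libraries, against 2.26, 2.31 and 2.36 FPKM in sham libraries, with infarct library 1 the farthest down. Its change was -0.50 (SE 0.19, unadjusted limma p 0.0376), and -0.29 without that library. With pseudocounts of 0.1 and 0.01 FPKM it was -0.77 and -0.82. Gm1976 met the level rule through the sham libraries only. The rule thus favoured this direction, and the p is no separate support for it. 1700056N10Rik had 2.34, 2.15 and 1.65 FPKM in infarct libraries, against 3.10, 2.39 and 2.54 FPKM in sham libraries. Its change was -0.27 (SE 0.15, unadjusted limma p 0.107), infarct library 1 lay only just under sham library 2, and the change was -0.18 without infarct library 3.

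**Figure D3:**
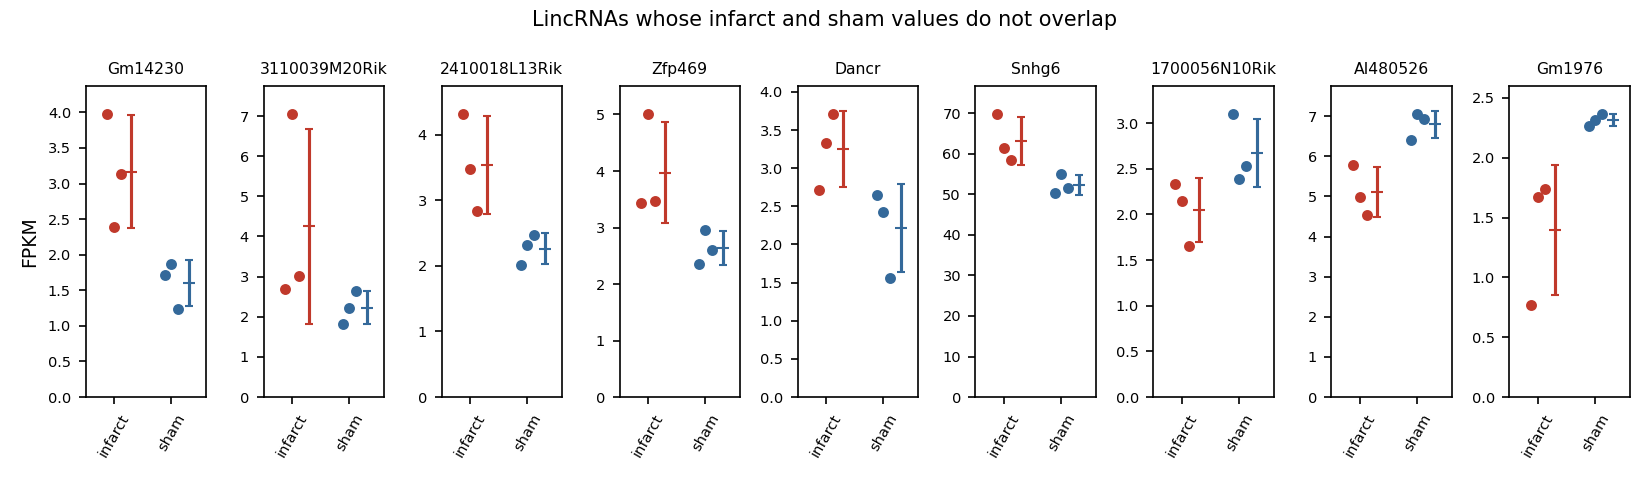
FPKM per library of the 9 lincRNAs whose infarct (red) and sham (blue) values do not overlap, each panel with its own axis from 0, with the mean and SD of each group beside its 3 points. The panels run from the most positive change (Gm14230) to the most negative (Gm1976), and the gap between the nearest infarct and sham values is widest, as a ratio, for Gm14230 and Gm1976, which met the level rule through 1 group only.

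The next members by p had overlapping groups. Epb41l4aos had a change of 0.31 (SE 0.14, unadjusted limma p 0.0711) and 1110019D14Rik of 0.23 (SE 0.13, p 0.116 in limma). On the lower side, Gm8066, which overlaps the span of the erythropoietin gene Epo, averaged 2.90 ± 0.681 FPKM in infarct libraries and 4.27 ± 1.22 FPKM in sham libraries (SD, n = 3 each). CT009718.2 and Gm46430, neighbours on chromosome 13 at 15102 bp, had changes of -0.38 and -0.18. 3222401L13Rik had a change of -0.21 and Bvht of -0.20. None of these 7 had an unadjusted p under 0.05. With small, ribosomal and mitochondrial RNA left out, the changes of Epb41l4aos and 1110019D14Rik were 0.20 and 0.14, and that of Gm46430 was -0.28. Without infarct library 1, the changes of CT009718.2, Gm46430 and 3222401L13Rik were -0.16, -0.06 and -0.13. Without infarct library 2, that of Gm46430 was -0.29. Without sham library 3, those of Gm46430, 3222401L13Rik and Bvht were -0.08, -0.14 and -0.08, and without sham library 1 that of Bvht was -0.32.

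Members had a higher median spread between libraries than protein-coding genes of like level. The median residual SD within groups was 0.246 on log2(FPKM + 1) in the 48 members between the quartiles of level, against 0.178 in 4684 protein-coding genes within the same levels, and 0.254 in all 98 members. These genes were matched on FPKM alone. At the same FPKM a shorter transcript holds fewer fragments and has more counting error, and the part of length in this contrast was not tested. The steadiest were Tmem250-ps, Gm37494 and Gm38399, with residual SDs of 0.0641, 0.0717 and 0.079. Tmem250-ps had 13.1, 12.4 and 13.6 FPKM in infarct libraries, against 12.4, 13.6 and 12.8 FPKM in sham libraries. Its 95% interval ran from -0.20 to 0.23.

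The 5 members with the largest spread were Gm13166, Gm12840, Gm42743, Gm12603 and Gm43101. Gm13166, in a cluster of zinc finger genes on chromosome 4, had 3.44, 1.86 and 6.18 FPKM in infarct libraries, against 3.07 and 3.74 FPKM in sham libraries 1 and 2, and was listed at 0 in sham library 3. Gm12840 had 22.5, 9.19 and 5.78 FPKM in infarct libraries, against 4.48, 14.8 and 4.34 FPKM in sham libraries. Infarct library 1 and sham library 2 stood apart in this gene. The same 2 libraries were highest in their groups for Gm42743, which had 4.80, 1.36 and 3.03 FPKM in infarct libraries, against 3.13, 6.71 and 1.49 FPKM in sham libraries. Gm42743 shares 226 nt of exon with the histone gene Hist2h2bb. They were also highest for Gm12603, called Wincr1 in GENCODE M21, with 12.6, 8.17 and 5.66 FPKM in infarct libraries, against 7.30, 13.6 and 4.72 FPKM in sham libraries.

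Infarct library 1 and sham library 2 were also the highest for cell-cycle genes. The summed level of 8 cycling markers was 343, 153 and 180 FPKM in infarct libraries, against 161, 305 and 114 FPKM in sham libraries. Of the members, 20 (20.4%) were highest in both of these libraries and 24 (24.5%) lowest in both, against 25% and 25.4% of all genes tested. In 7 members (7.14%) both libraries lay 0.5 or more above the mean of the other libraries of their group on log2(FPKM + 1), and in 4 (4.08%) both lay 0.5 or more below, against 4.05% and 3.27% of all genes tested. The part of the cycling genes in these differences was not tested.

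**Figure D4:**
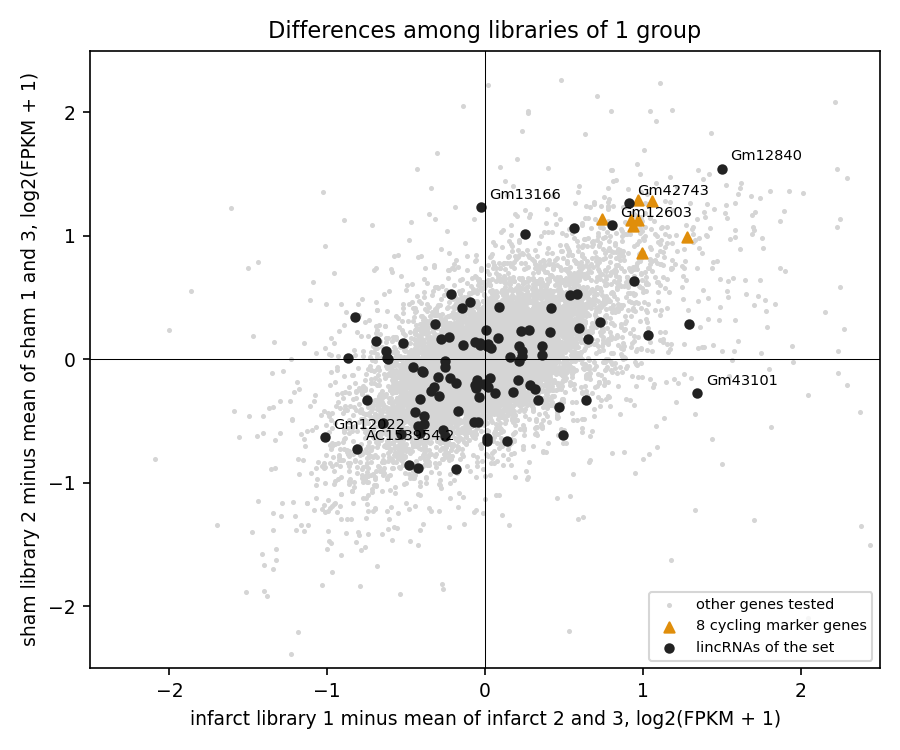
Difference of infarct library 1 from the mean of infarct libraries 2 and 3 (horizontal) and of sham library 2 from the mean of sham libraries 1 and 3 (vertical), both in log2(FPKM + 1), with 20 other genes outside the axis limit of 2.5. Gm12840, Gm42743 and Gm12603 lie at the upper right among the 8 cycling marker genes (orange), Gm13166 is displaced upward, Gm43101 to the right, and most lincRNAs of the set (black) lie near the centre.

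The gene structures of the members are set here beside those of all lincRNAs. In GENCODE M21, which holds 97 of the 98 by identifier, the median longest transcript was 1645 nt, against 984 nt over 5854 lincRNA genes. Members had a median of 2 exons against 3, and 22 members (22.7%) had a single exon, against 6.73% of all lincRNA genes. The lincRNA genes of GENCODE M21 were not chosen by level, and the part of level in these contrasts was not tested. Exons of 39 members overlap those of another gene, 18 on the same strand and 27 on the opposite strand, so their levels are uncertain.

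Many members lie close to protein-coding genes. The median distance was 4461 bp, 15 members overlapped the span of a coding gene, and 11 lay more than 100000 bp away. In 14 members (14.4%) an opposite-strand coding gene starts up to 1000 bp before the lincRNA start or a shorter distance past it. This divergent arrangement was found in 4.94% of all lincRNA genes in GENCODE M21. Those genes, unlike the members, were not chosen by level. In 11 of these 14 pairs the lincRNA stood below its coding partner. Gm17501 stood at 15.9 ± 5.38 FPKM in infarct libraries and 15.6 ± 1.54 FPKM in sham libraries (SD, n = 3 each), 331 bp from Ccn1, a matrix protein induced by mechanical stress and YAP. Ccn1 stood at 381 ± 76.0 FPKM in infarct libraries and 420 ± 22.3 FPKM in sham libraries (SD, n = 3 each). The pair's levels thus lay far apart.

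Snhg18, 148 bp from the axon guidance gene Sema5a, stood above its partner, which had 5.25 ± 4.10 FPKM in infarct libraries and 3.31 ± 0.250 FPKM in sham libraries (SD, n = 3 each). AC134329.1, 111 bp from the tetraspanin gene Tspan31, averaged 3.27 FPKM over the 6 libraries against 70.7 FPKM for Tspan31. Gm17586, 168 bp from the transcription factor gene Mafg, averaged 2.16 FPKM against 14.6 FPKM. No coding partner of these 14 was called in limma, and none had an unadjusted p under 0.05. The sign of the change was the same in 9 of the 14 pairs.

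**Figure D5:**
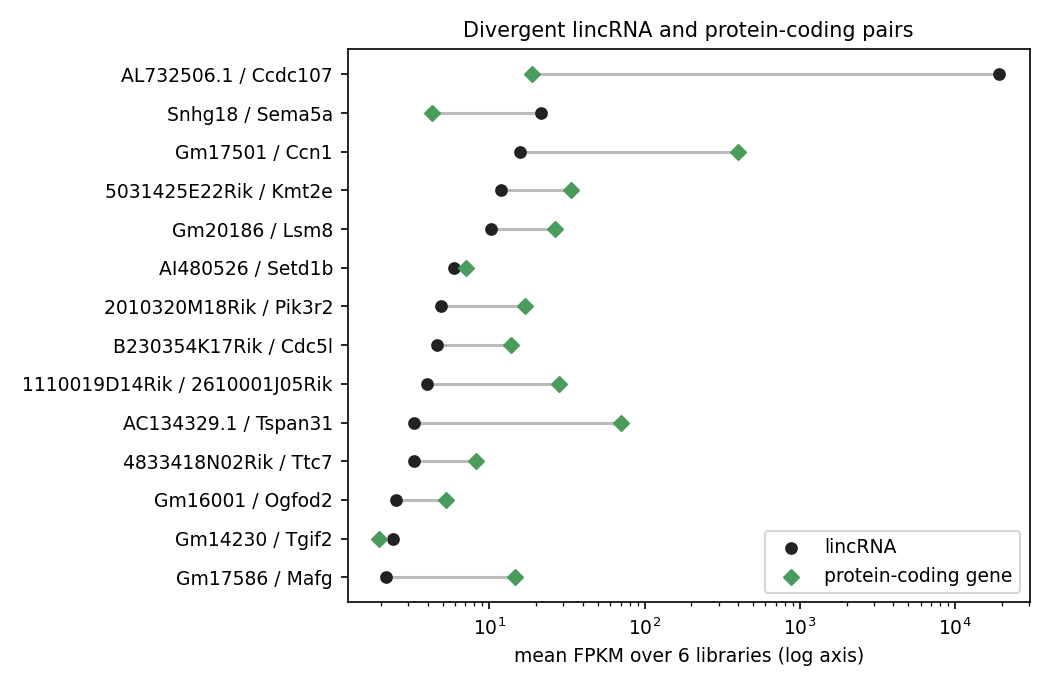
Mean FPKM over the 6 libraries (log axis) of the 14 lincRNAs with a divergent protein-coding gene (black circles) and of that gene (green diamonds), joined by a line. The lincRNA lies below its partner in 11 pairs, the exceptions being AL732506.1, Snhg18 and Gm14230.

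Over all members the nearest coding gene could be tested in 70 of 97 pairs. These pairs hold 66 coding genes. None of the 66 was called in limma, and 3 had an unadjusted p under 0.05, against 3.58% of all genes tested. In 44 pairs (62.9%) the coding gene's change had the sign of the member's. Pearson's r of the 2 changes was 0.32 across these 70 pairs, which share the same 6 libraries. Neither value was computed for other pairs of genes, so no background stands beside them or beside the count of divergent pairs above. Over these 70 pairs, the median member stood at 36.5% of the level of its coding neighbour, and over all 97, in 27 of which the coding gene lay below the filter, at 76.9%. Gm34030 and 5033428I22Rik, which lie 7059 and 7485 bp from Hand2, the transcription factor of heart and limb mesenchyme, overlap each other on opposite strands. Gm34030 had 3.86, 3.65 and 4.40 FPKM in infarct libraries, against 4.37, 3.54 and 6.72 FPKM in sham libraries. 5033428I22Rik had 7.53, 4.85 and 6.83 FPKM in infarct libraries, against 6.97, 5.33 and 6.92 FPKM in sham libraries. Both overlapped between the groups. Hand2 averaged 14 ± 2.66 FPKM in infarct libraries and 19.7 ± 2.03 FPKM in sham libraries (SD, n = 3 each), with an unadjusted limma p of 0.0169 and an adjusted p that rounded to 1.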

How the data were processed

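RNA of 6 mouse cardiac mesenchymal cell samples was sequenced as rRNA-depleted, directional, paired-end libraries, per the labels' protocols. Named in the submitters' processing notes, without roles, are Cuffdiff, Cufflinks, StringTie, SAMtools, HISAT2, Trimmomatic 0.36 and the build GRCm38. The sources used here give neither the annotation version nor the use of strand in counting.

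Per the file headers, the deposited values are FPKM in 1 column per library. The deposited table also holds the q-value and p-value of the authors' own comparison. Sham columns carry the sample numbers. Infarct columns do not, so they were assigned to their group only and keep the table's numbers. The FPKM values are not counts, so limma 3.58.1 in R 4.3.3 was used on log2(FPKM + 1), with an intensity trend and two-sided tests, over the 12724 entries that reached 1 FPKM in 3 or more of the 6 libraries. P-values were adjusted over all of them by Benjamini-Hochberg, at a threshold of 0.05. The log2(FPKM + 1) scale understates the change of low genes. The procedure was tested on simulated data.

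Depth was estimated from the lowest FPKM, since 97.8% to 98.7% of low values in transcripts of 2000 to 12000 nt were whole numbers of fragments, with a tolerance of 0.1, after 250 nt were taken off the length. Identifiers were matched to GENCODE M21, and 10 members have another name there. In 57 members the locus is that of the annotated gene. Promoters and miRNAs came from RefSeq (GRCm38.p6). Figures were drawn with matplotlib 3.10.9, and tables were handled with pandas 2.3.3 and numpy 2.4.6 in Python 3.11.15.

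Members and gene lists were chosen with earlier results of these data known. Members named are those in the lists, the 10 most abundant, the 8 with the smallest p in each direction, the 5 with the largest and 3 with the smallest spread, those at the edge of the level rule, and those that met it through 1 group. Members named for their position, miRNAs or promoter, the 9 whose groups did not overlap, and Dleu2 were chosen after their values were seen. Protein-coding entries in the lists were left out. Alternatives were 2 other pseudocounts, 3 filters, 2 scalings, no trend, 2 removals of short or abundant RNA, each library left out, 2 other level floors and a q-value of 0.1. The removal of the 3 most abundant members was added after seeing the data.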

Additional observations from a re-analysis of the deposited data

Results flagged for a closer look

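Xist, which the autosomal rule leaves out, had a signal in libraries labelled male, and its lowest value was 63.1 FPKM, in an infarct library.

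The authors' deposited table calls 2 lincRNAs that lie below the level rule. AC114585.2 (chr14:103463919-103512619, GRCm38) had 1.36, 0.774 and 0.858 FPKM in infarct libraries and was listed at 0 in every sham library, with a q-value of 0.00325 in the authors' deposited table. Its nearest coding gene, Scel at 723 bp, had 17.9, 47.1 and 39.2 FPKM in infarct libraries, against 24.5, 22.2 and 40.6 FPKM in sham libraries. 4833403J16Rik (chr6:48755338-48756368) was listed at 0 in every infarct library and had 0.412, 0.630 and 0.789 FPKM in sham libraries, with a q-value of 0.00178 in the authors' deposited table. Gimap5, 1128 bp away and a gene of lymphocytes and endothelium, had 0.339, 0 and 0.117 FPKM in infarct libraries, against 0.456, 2.22 and 2.20 FPKM in sham libraries.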

How the results depend on the processing

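No paired analysis was possible because the infarct columns do not carry the numbers of the infarct samples. The labels also state no pairing of sham with infarct samples, so the numbers alone would not have given pairs. Under all alternatives, no member was called in limma, and the 17 alternatives gave 260 values for 16 single members, all of the main direction and none past the threshold (adjusted p 0.699 to 1). These 16 were the 8 with the smallest p in each direction of this same comparison. They were thus picked for a clear direction, and most alternatives reuse all 6 libraries. That the direction held is therefore no separate check of it. The other results moved as follows. Over all genes, 1 was called with no filter and 0 without transcripts under 300 nt, and 0 to 3 without single libraries. Members at an unadjusted p under 0.05 numbered 2 with a filter of 5 FPKM, which leaves 41 members, 3 with small, ribosomal and mitochondrial RNA left out, 3 with the 3 most abundant members left out as well, and 4 to 8 without single libraries, against 2.81%, 4.51%, 4.81% and 3.06% to 4.31% of all genes tested. Members whose groups did not overlap numbered 2 with the 5 FPKM filter, 14 without small RNA and the 3 most abundant members, and 14 to 22 without single libraries, where 3 values face 2: 18, 17 and 14 without infarct 1, 2 and 3, and 16, 22 and 17 without sham 1, 2 and 3. Of all genes tested, 7.01%, 11.9% and 13.8% to 20.3% did not overlap under these settings. The median change of members was -0.10 without small RNA and -0.11 with the 3 most abundant members left out too, where all genes had -0.09 and -0.10, and -0.04 to 0.03 without single libraries. The same rescaling turned the split of genes whose groups did not overlap from 473 higher and 522 lower into 98 higher and 1301 lower. Depth limits the 56 members under 5 FPKM most, and short or overlapping transcripts limit the levels of single members.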

Other observations

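Among lincRNAs outside the level rule, 2 were abundant in a single library and under 1 FPKM in the other 5. Mir670hg, a miRNA host, had 12823 FPKM in infarct library 3 and at most 0.0499 FPKM in any other library. Gm38079 had 595 FPKM in infarct library 3 and was listed at 0 in every other library. These values are singled out after they were seen.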
